A study of Bos taurus with 15 samples.

Results

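The genes described here are 10 regulators of the trophectoderm, the outer epithelium of the blastocyst that later forms the placenta. They were chosen by name as known trophectoderm genes, and the list comprised CDX2 (NCBI gene 618679), GATA2 (506809), GATA3 (505169), TFAP2A (505849), TFAP2C (511317), DAB2 (509221), HAND1 (517952), ASCL2 (664650), ELF3 (508503) and GRHL2 (519918). All but DAB2, an endocytic adaptor protein, encode transcription factors. Of these 10 genes, 8 were among the 10832 genes of the filtered read count table, and HAND1 and ASCL2 were found only in the unfiltered table of 34773 genes.

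Bovine embryos produced in vitro were cultured without oviductal extracellular vesicles (Co), with fresh oviductal vesicles (FeEV) or with vesicles that had been frozen before use (FoEV). The vesicles came from the fluid of slaughterhouse oviducts of cows after ovulation, and the fresh and frozen preparations were portions of the same material. Each treatment was represented by 5 libraries of total RNA, each from 1 pool of 8 to 14 embryos and prepared from 1 ng of RNA. The labels give blastocysts of day 7, and the methods 1 more day of culture. Each pool mixed trophectoderm, epiblast and hypoblast, so fewer cells of one type and less RNA per cell cannot be told apart in these values. The p-values measure the spread between pools, which the labels do not tie to separate culture runs or parents.

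The reads counted on genes ran from 2571558 to 2977004 per Co library, from 2136713 to 3808602 per FeEV library and from 3392613 to 4058887 per FoEV library. FoEV libraries exceeded Co libraries by 957432 reads on average (p = 0.00794 in a two-sided exact permutation test, which can give no smaller p at this size). They exceeded FeEV libraries by 760585 reads on average (p = 0.0317 in a two-sided exact permutation test). Depth and treatment therefore moved together in FoEV vs. Co and in FoEV vs. FeEV. FeEV libraries exceeded Co libraries by 196847 reads on average (p = 0.540 in a two-sided exact permutation test). Values are given as CPM, the reads of a gene relative to the library total scaled by TMM. They do not account for transcript length, and levels are therefore compared between treatments and not between genes.

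In the mouse embryo, polarized outer cells keep the Hippo kinases inactive. The coactivators YAP1 and WWTR1 can thereby enter the nucleus and act with TEAD factors on genes such as CDX2 and GATA3. Factors of the GATA and AP-2 families then keep the trophectoderm program running, and epithelial factors such as GRHL2 act on junction genes. HAND1 and ASCL2 are basic helix-loop-helix factors best known from later trophoblast cells. Of the keratin genes of simple epithelia, KRT8 was read at 3613 to 5997 CPM, KRT18 at 2247 to 4587 CPM and KRT19 at 187 to 616 CPM over the 15 libraries. Of the interferon tau genes, also markers of the trophectoderm, IFNT2 had only 0 to 41 reads per library, whereas IFNT3 had 47 to 593. The pools held whole blastocysts, so these levels do not measure the share of trophectoderm cells.

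In the quasi-likelihood test of edgeR, 0 of the 8 genes in the filtered table had an adjusted p under 0.05 in each of the 3 comparisons. Over all 10832 genes, 0.00923% passed in FoEV vs. Co, 0.0% in FeEV vs. Co and 0.0% in FoEV vs. FeEV. At an unadjusted p under 0.05, 2 of the 8 genes passed in FoEV vs. Co, beside 15.1% of all genes. None (0) passed in FeEV vs. Co, beside 4.15% of all genes, and 1 passed in FoEV vs. FeEV, beside 8.52%. The genes concerned were GATA3 and GATA2 in FoEV vs. Co and ELF3 in FoEV vs. FeEV, all 3 with higher levels in FoEV. The count of 2 in FoEV vs. Co became 1 without Co replicate 2, 3, 4 or 5 or FoEV replicate 3 or 4. Without FoEV replicate 5 the count was again 2, but of other genes, with TFAP2A (log2 fold change -0.74, unadjusted p = 0.0177) and TFAP2C (0.26, unadjusted p = 0.0316) in place of GATA3 and GATA2. ELF3 also passed in FoEV vs. Co without FeEV replicate 2 (0.43, unadjusted p = 0.0262). The count of 1 in FoEV vs. FeEV became 0 without FeEV replicate 1 or 4 or FoEV replicate 5 and 2 without FeEV replicate 3 or 5 or FoEV replicate 1. In FeEV vs. Co, 1 gene passed without Co replicate 5, FeEV replicate 3 or FoEV replicate 4. The adjusted p of all 8 genes also stayed above the threshold with the likelihood ratio test on robust dispersions and with the Wald test of DESeq2.

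**Figure D1:**
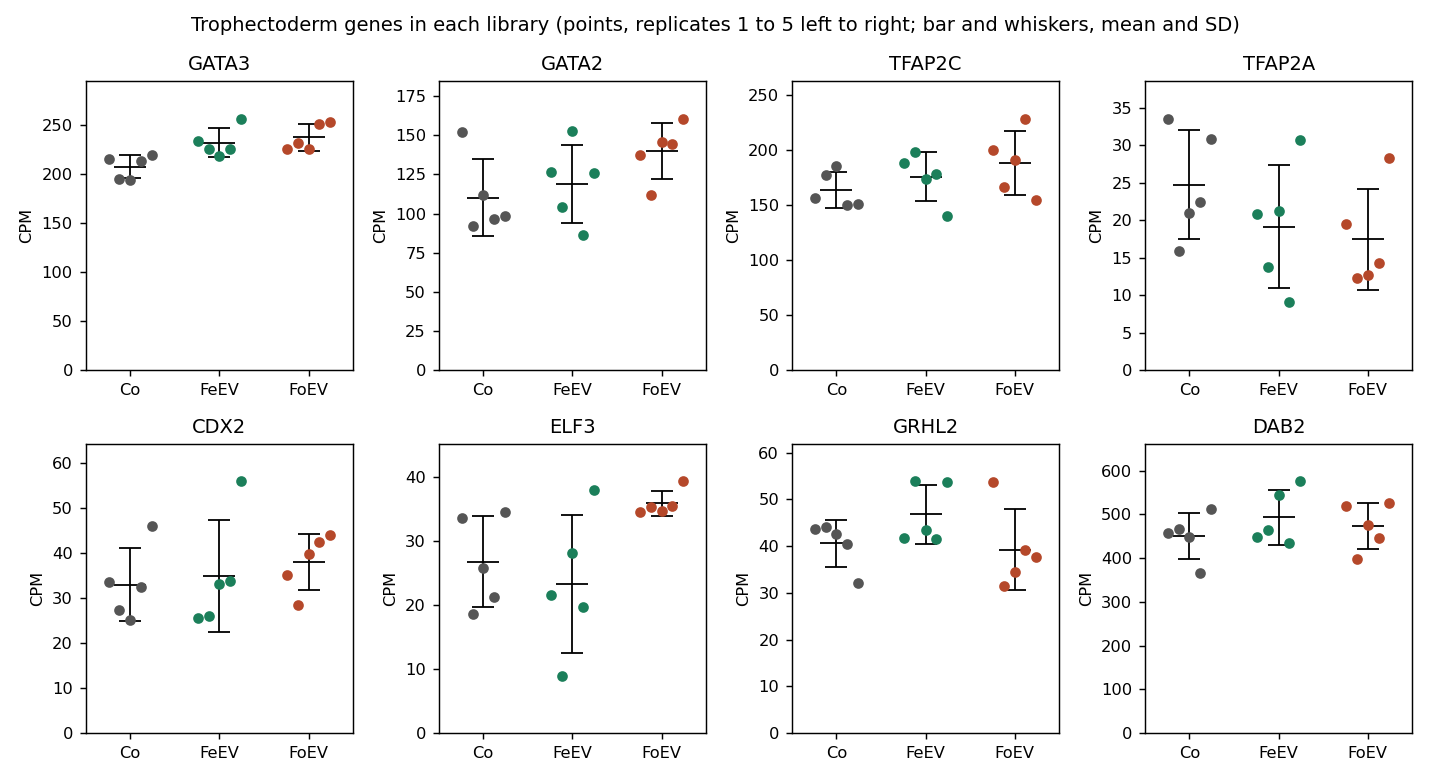
CPM of the 8 genes of the filtered table in each library, with 1 panel per gene and the treatments Co, FeEV and FoEV along the horizontal axis. Points are libraries in the order of their replicate numbers, and the bar with whiskers is the mean and SD of 5 libraries. GATA3 libraries of FoEV sit between 225.1 and 252.4 CPM, all above the Co libraries at 194 to 219 CPM.

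GATA3, a zinc finger factor that responds to TEAD4 in parallel to CDX2 in the mouse, gave the narrowest spread of the group. It was read at 215, 195, 194, 214 and 219 CPM in the 5 Co libraries, at 234, 225, 218, 225 and 256 CPM in FeEV and at 225, 232, 225, 251 and 252 CPM in FoEV. Every FoEV library lay above every Co library, whereas the lowest FeEV library fell just under the highest Co library. Means over 5 libraries were 207 ± 11.9, 232 ± 14.8 and 237 ± 13.6 CPM (SD) for Co, FeEV and FoEV. FoEV exceeded Co 1.14-fold (95% interval 1.02 to 1.28), with a log2 fold change of 0.19 (standard error, SE, 0.08, edgeR unadjusted p = 0.0208, adjusted p = 0.238). For FeEV vs. Co the log2 fold change was 0.16 (SE 0.08, edgeR unadjusted p = 0.0507, adjusted p = 1.000). Both oEV treatments were neighbours in the order of levels and differed by 0.03 on the log2 scale (SE 0.08, edgeR adjusted p = 0.921). The biological coefficient of variation of GATA3 between libraries, which edgeR estimates after removing counting error, was 0.0870, and only 1.27% of all genes had a lower one.

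GATA2, the second GATA factor of the trophoblast, varied more. Its levels were 152, 92.1, 112, 96.3 and 98.5 CPM in Co, 126, 104, 153, 86.5 and 126 CPM in FeEV and 138, 112, 145, 145 and 161 CPM in FoEV. The first Co library reached the upper part of the FoEV range, and the remaining Co libraries were at or below the lowest FoEV library. Means over 5 libraries were 110 ± 24.6, 119 ± 25.1 and 140 ± 17.8 CPM (SD) for Co, FeEV and FoEV. The FoEV to Co ratio was 1.27 (95% interval 1.02 to 1.57), a log2 fold change of 0.34 (SE 0.15, edgeR unadjusted p = 0.0308, adjusted p = 0.276). Neither neighbouring step passed the test, with log2 fold changes of 0.12 for FeEV vs. Co (SE 0.15, edgeR adjusted p = 1.000) and 0.23 for FoEV vs. FeEV (SE 0.15, edgeR adjusted p = 0.663, 0.33 and unadjusted p = 0.0337 without FeEV replicate 3). The log2 ratio of GATA2 to GATA3 reads within a library averaged -0.94 ± 0.29 in Co, -0.98 ± 0.32 in FeEV and -0.77 ± 0.17 in FoEV, with overlapping ranges.

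The 2 AP-2 factors of the list showed opposite signs. TFAP2C, which is required in the mouse trophectoderm, was read at 156, 177, 186, 150 and 151 CPM in Co, at 188, 198, 174, 179 and 140 CPM in FeEV and at 200, 167, 191, 228 and 155 CPM in FoEV. The lowest library of FeEV and the lowest of FoEV were both replicate 5. Its means were 164 ± 16.4, 176 ± 22.3 and 188 ± 28.8 CPM (SD, n = 5), and FoEV vs. Co gave a log2 fold change of 0.20 (SE 0.11, edgeR unadjusted p = 0.0916, adjusted p = 0.408), an interval of the fold from 0.977 to 1.34.

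TFAP2A, its paralog, was read at 33.5, 15.9, 21.0, 22.5 and 30.8 CPM in Co, at 20.9, 13.7, 21.3, 9.11 and 30.7 CPM in FeEV and at 19.4, 12.4, 12.7, 14.4 and 28.4 CPM in FoEV. The treatments overlapped, although 3 of the FoEV libraries lay under all 5 Co libraries. Its means were 24.7 ± 7.29, 19.1 ± 8.24 and 17.4 ± 6.73 CPM (SD, n = 5) for Co, FeEV and FoEV. The log2 fold change of FoEV vs. Co was -0.49 (SE 0.30, edgeR unadjusted p = 0.114, adjusted p = 0.444), with an interval of the fold from 0.460 to 1.10. TFAP2A had the widest spread of the 8 genes, with a biological coefficient of variation of 0.292, higher than that of 93.3% of all genes. It was supported by 20 to 110 reads per library, and counting error alone gives a coefficient of variation of 12.5% to 15.2%, beside 29.5% to 43.0% between libraries. The log2 ratio of TFAP2A to TFAP2C reads averaged -2.78 ± 0.54 in Co, -3.31 ± 0.81 in FeEV and -3.49 ± 0.63 in FoEV, with overlapping ranges. The direction of TFAP2A between both oEV treatments depended on FeEV replicate 5: FoEV vs. FeEV was -0.16 on the log2 scale with it and 0.076 without it.

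CDX2, the homeobox factor that marks the trophectoderm lineage, was read at 33.5, 27.3, 25.2, 32.5 and 46.0 CPM in Co, at 25.6, 26.0, 33.2, 33.7 and 55.9 CPM in FeEV and at 35.2, 28.5, 39.7, 42.4 and 43.9 CPM in FoEV. In each treatment the highest library was replicate 5, and the treatments overlapped. The means of 32.9 ± 8.10, 34.9 ± 12.3 and 37.9 ± 6.22 CPM (SD, n = 5) followed the same order as those of GATA3, GATA2 and TFAP2C. No step of this order was larger than the spread, with a log2 fold change of 0.21 for FoEV vs. Co (SE 0.20, edgeR unadjusted p = 0.312, adjusted p = 0.649) and an interval of the fold from 0.863 to 1.55. For FeEV vs. Co the value was 0.10 with all libraries and -0.15 without FeEV replicate 5, and for FoEV vs. FeEV it was 0.11 with all libraries and 0.36 without that library (unadjusted p = 0.0480).

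ELF3, an ETS-family factor of epithelia, had unequal spreads in the 3 treatments. The libraries held 33.5, 18.6, 25.8, 21.3 and 34.5 CPM in Co, 21.5, 8.91, 28.2, 19.6 and 38.0 CPM in FeEV and 34.5, 35.3, 34.7, 35.4 and 39.3 CPM in FoEV. The 5 FoEV libraries lay close together at the upper end of the range of the other treatments, and 4 of the 5 FeEV libraries were below all of them. The means were 26.7 ± 7.14, 23.2 ± 10.8 and 35.8 ± 1.95 CPM (SD, n = 5). Between FoEV libraries the coefficient of variation was 5.44%, under the 8.74% that counting 106 to 149 reads gives by itself, and it was 26.7% in Co and 46.4% in FeEV. FoEV exceeded FeEV 1.52-fold (95% interval 1.05 to 2.19), a log2 fold change of 0.60 (SE 0.25, edgeR unadjusted p = 0.0277, adjusted p = 0.544). Against Co the log2 fold change was 0.43 (SE 0.25, edgeR unadjusted p = 0.106, adjusted p = 0.430). The FeEV mean was below the Co mean by a log2 fold change of -0.18 (SE 0.26, edgeR unadjusted p = 0.510), which became 0.024 without FeEV replicate 2.

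Under TMM scaling the FoEV and Co libraries did not overlap for GATA3 and ELF3, 2 of the 8 genes, where 1.26% of all genes had no overlap with FoEV higher. For ELF3 this rested on 34.50 CPM in the lowest FoEV library against 34.47 in the highest Co library. With the size factors of DESeq2, and likewise after removal of the rRNA genes, the ELF3 ranges overlapped and only GATA3 remained, 1 of the 8 genes. None of the 8 (0 genes) had all FoEV libraries below all Co libraries, beside 1.35% of all genes. In FeEV vs. Co 0 of the 8 were free of overlap, beside 0.535% of all genes with FeEV higher and 0.415% with FeEV lower, and in FoEV vs. FeEV 0 of the 8, beside 0.757% with FoEV higher and 0.748% with FoEV lower.

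GRHL2, a grainyhead-like factor acting on E-cadherin and claudin genes, was highest in FeEV. It was read at 43.8, 44.2, 42.6, 40.5 and 32.0 CPM in Co, at 41.7, 53.8, 43.5, 41.4 and 53.6 CPM in FeEV and at 53.7, 31.5, 34.4, 39.1 and 37.6 CPM in FoEV. The first FoEV library stood as high as the 2 highest FeEV libraries, and the remaining FoEV libraries were below all FeEV libraries. The means were 40.6 ± 5.01, 46.8 ± 6.36 and 39.3 ± 8.58 CPM (SD, n = 5). The log2 fold change of FoEV vs. FeEV was -0.25 (SE 0.14, edgeR unadjusted p = 0.0846, adjusted p = 0.609), and without FoEV replicate 1 it was -0.40 (unadjusted p = 0.0058). That of FoEV vs. Co was -0.05 with all libraries and 0.023 without FoEV replicate 2.

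DAB2, a clathrin adaptor of endocytosis known from trophoblast and primitive endoderm, was read at 458, 468, 449, 366 and 512 CPM in Co, at 448, 465, 545, 434 and 575 CPM in FeEV and at 519, 399, 477, 445 and 526 CPM in FoEV. The ranges overlapped widely, and replicate 5 was highest in each treatment. With means of 450 ± 53.2, 493 ± 62.8 and 473 ± 52.8 CPM (SD, n = 5), no comparison gave an unadjusted p under 0.05. The interval of the fold was 0.905 to 1.22 for FoEV vs. Co and 0.944 to 1.27 for FeEV vs. Co.

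**Figure D2:**
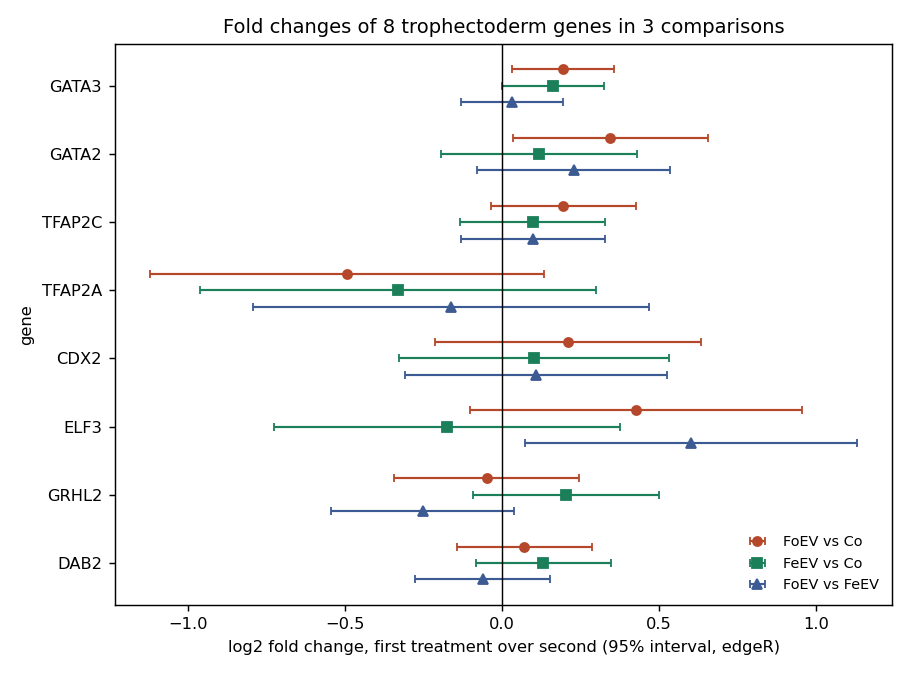
Log2 fold changes of the 8 genes (vertical axis) in FoEV vs. Co, FeEV vs. Co and FoEV vs. FeEV, with points for the edgeR estimate and lines for its 95% interval. The intervals of GATA3 and GATA2 in FoEV vs. Co and of ELF3 in FoEV vs. FeEV lie above 0, and those of TFAP2A and ELF3 are the widest.

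Across the 8 genes the median log2 fold change was 0.20 in FoEV vs. Co, where the median of all genes was 0.01, and 6 of the 8 were higher in FoEV beside 52.3% of all genes. In FeEV vs. Co the median was 0.11 against 0.00 for all genes, with 6 of the 8 higher beside 51.0%. In FoEV vs. FeEV it was 0.07 against 0.01, with 5 of the 8 higher beside 51.8%. The comparisons share their libraries pairwise and are not independent of each other.

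HAND1 and ASCL2 did not reach the filter. HAND1 was counted at 1, 2, 8, 4 and 4 reads in the Co libraries, at 2, 0, 1, 6 and 2 reads in FeEV and at 8, 1, 11, 0 and 2 reads in FoEV, or 52 reads in all. ASCL2 was counted at 5, 3, 1, 2 and 8 reads in Co, at 2, 3, 3, 2 and 18 reads in FeEV and at 6, 4, 5, 2 and 17 reads in FoEV, or 81 reads in all. The most ASCL2 reads of each treatment were found in replicate 5. In a fit of the unfiltered table, the log2 fold change of FoEV vs. Co had a 95% interval from -1.44 to 0.96 for HAND1 and from -0.70 to 1.43 for ASCL2, so a difference of 0.96 on the log2 scale in HAND1 could not be told from 0 at this depth. Counts of up to 3 reads were taken as not to be told from 0, and HAND1 exceeded 3 reads in 6 of the 15 libraries and ASCL2 in 7.

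**Figure D3:**
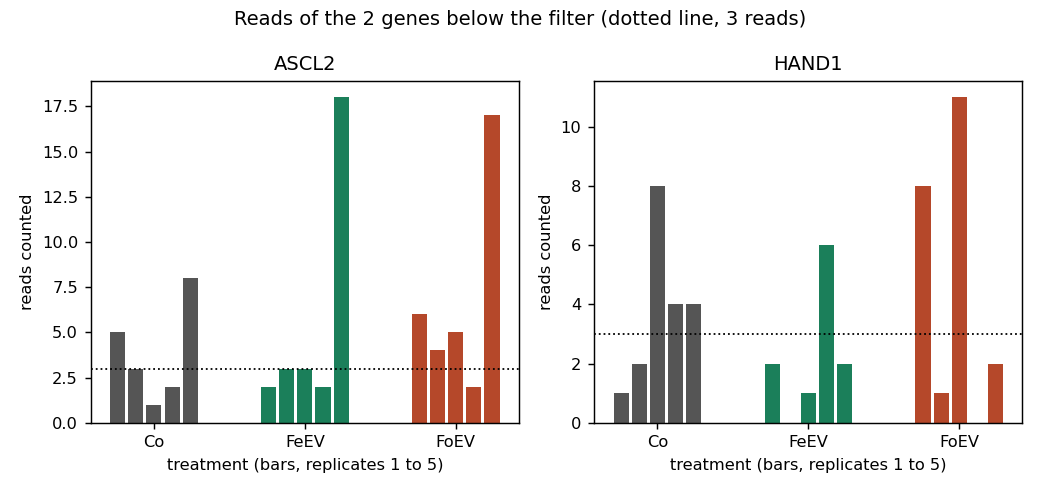
Reads counted for HAND1 and ASCL2 in each library, with 5 bars per treatment for replicates 1 to 5 and a dotted line at 3 reads. HAND1 stays at or below 11 reads and ASCL2 at or below 18, with the tallest ASCL2 bars in FeEV replicate 5 and FoEV replicate 5.

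The replicates numbered 5 in the sample titles stood apart for these genes in all 3 treatments. Co replicate 5 was the highest Co library for 4 of the 8 genes, CDX2, GATA3, DAB2 and ELF3, where 19.3% of all genes were highest in it. FeEV replicate 5 was the highest for 5, the same 4 and TFAP2A, beside 23.5% of all genes, and FoEV replicate 5 for 6, these 5 and GATA2, beside 17.2%. The total of FeEV replicate 5, 3808602 reads, was the largest of its treatment, whereas Co replicate 5 had 2779168 and FoEV replicate 5 had 3817985 reads. In the sample descriptions, FeEV replicate 5 and FoEV replicate 5 both carried the number 7 and Co replicate 5 the number 6. What these numbers mark is not stated, and the labels give the 3 libraries no shared animal or run.

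Without these 3 libraries, a setting added after the values were seen, the comparison FoEV vs. Co moved in several genes. TFAP2A gave a log2 fold change of -0.66 (edgeR unadjusted p = 0.0201) in place of -0.49, and GATA2 0.25 (unadjusted p = 0.173) in place of 0.34. GATA3 stayed at 0.19 (unadjusted p = 0.0516), CDX2 gave 0.29 (unadjusted p = 0.0878), TFAP2C 0.22 (unadjusted p = 0.0543) and ELF3 0.49 (unadjusted p = 0.0524). In FoEV vs. FeEV, ELF3 gave 0.82 (unadjusted p = 0.00303), and 0 of the 8 had an adjusted p under 0.05 in any comparison.

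**Figure D4:**
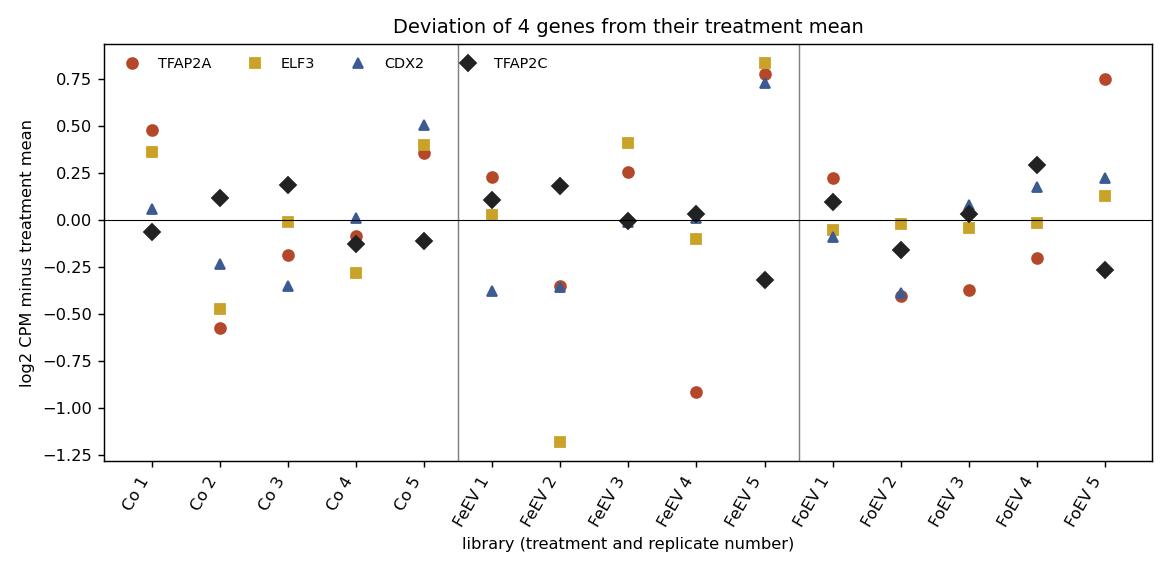
Deviation of TFAP2A, ELF3, CDX2 and TFAP2C from the mean of their treatment in each of the 15 libraries (vertical axis, log2 CPM; horizontal axis, treatment and replicate number). In replicate 5 of each treatment TFAP2A, ELF3 and CDX2 lie above 0 and TFAP2C lies below 0.

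To see which of the genes varied together between pools of the same treatment, log2 CPM was taken as the deviation from the treatment mean and correlated over the 15 libraries, with p from permutations of libraries within treatments. Of the 28 pairs among the 8 genes, 19 correlations were positive and 9 negative, 9 had an unadjusted Pearson p under 0.05, and 0 an adjusted one. By rank, 2 pairs passed the adjustment over the 28 pairs. These were TFAP2A with ELF3 (Spearman rho 0.80, permutation p = 0.00141, adjusted p = 0.0395, Pearson r 0.64, permutation p = 0.0314, adjusted p = 0.137) and GATA2 with TFAP2A (rho 0.76, permutation p = 0.00355, adjusted p = 0.0497, r 0.72, permutation p = 0.00715, adjusted p = 0.1001). Without the 2 libraries farthest from the median of the first gene, r was 0.55 and 0.59 for these 2 pairs, and without the 3 libraries numbered 5 it was 0.50 and 0.85.

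CDX2 and GATA3, both known targets of TEAD4 in the mouse, had an r of 0.73 (permutation p = 0.00644, adjusted p = 0.1001) and a rho of 0.625 (permutation p = 0.0203, adjusted p = 0.114). This value fell to 0.51 without the 2 farthest libraries and to 0.37 without the 3 numbered 5. TFAP2C went the other way from CDX2 (r -0.56, permutation p = 0.0441, adjusted p = 0.137, rho -0.43, permutation p = 0.139, adjusted p = 0.243) and from ELF3 (r -0.56, permutation p = 0.0326, adjusted p = 0.137, rho -0.45, permutation p = 0.102, adjusted p = 0.217). Without the 3 libraries numbered 5 the r with TFAP2C was -0.03 for CDX2, -0.03 for GATA3, -0.09 for TFAP2A and -0.32 for ELF3, so the relation to the first 3 rested on those libraries. GRHL2 had an r between -0.21 and 0.29 with each of the other genes.

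The same deviations were set beside 8 marker genes, among them the keratins KRT8, KRT18 and KRT19 and IFNT3 of the trophectoderm. NANOG, POU5F1 and SOX2 came from the epiblast list used below and GATA6 from the hypoblast list. Whether POU5F1 was confined to the epiblast in these pools was not tested. The selection of these markers was made with their values known. Of the 64 relations, 6 passed an adjusted Pearson p under 0.05, and all 6 joined a gene of the list to a keratin. DAB2 followed KRT18 most closely (r 0.88, permutation p = 0.00023, adjusted p = 0.00736, rho 0.86, permutation p = 0.00049, adjusted p = 0.0314), with an r of 0.84 both without the 2 farthest libraries and without the 3 numbered 5. ELF3 followed KRT19 (r 0.79, permutation p = 0.00018, adjusted p = 0.00736, rho 0.81, permutation p = 0.00289, adjusted p = 0.0462), with 0.78 and 0.69 in the same 2 checks. TFAP2A also followed KRT19 (r 0.80, permutation p = 0.00173, adjusted p = 0.0277, rho 0.79, permutation p = 0.00217, adjusted p = 0.0462), with 0.77 and 0.75. DAB2 with KRT8 gave an r of 0.77 (rho 0.79, adjusted permutation p = 0.0462), with 0.72 and 0.68. ELF3 with KRT8 (r 0.81) and with KRT18 (r 0.73) did not pass by rank (rho 0.72 and 0.675, adjusted permutation p = 0.0859 and 0.103). The 2 checks gave 0.63 and 0.72 for KRT8 and 0.69 and 0.57 for KRT18. By rank, ELF3 also passed with GATA6 (rho -0.66, adjusted permutation p = 0.0466), where r was -0.60 (adjusted permutation p = 0.0850).

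GATA3 had an r between 0.13 and 0.33 with the 3 keratins. TFAP2C, which is also found in pluripotent cells, had positive values with POU5F1 (r 0.68, permutation p = 0.0173, adjusted p = 0.0850, rho 0.62, permutation p = 0.0281, adjusted p = 0.128) and GATA6 (r 0.68, permutation p = 0.0170, adjusted p = 0.0850, rho 0.67, permutation p = 0.0176, adjusted p = 0.103). Without the 2 farthest libraries these became 0.51 and 0.46, and without the 3 numbered 5 they became 0.48 and 0.39. NANOG went the other way (r -0.45, permutation p = 0.140, adjusted p = 0.309, rho -0.54, permutation p = 0.0662, adjusted p = 0.236), with -0.52 and -0.51 in the same 2 checks. With SOX2 the r was 0.30 (permutation p = 0.326, adjusted p = 0.475). TFAP2C had an r of -0.64 with KRT19 (permutation p = 0.0164, adjusted p = 0.0850, rho -0.55, permutation p = 0.0459, adjusted p = 0.184).

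With the library total and with the share of rRNA reads, 0 of the 8 genes had an adjusted Pearson permutation p under 0.05. The relations of smallest p are given here. Within treatments TFAP2A had an r of 0.72 with the log2 library total (permutation p = 0.0101, adjusted p = 0.0542 over 8 genes, rho 0.64, permutation p = 0.0246, adjusted p = 0.138, r 0.41 without the 2 farthest libraries), and DAB2 one of 0.59 (permutation p = 0.0135, adjusted p = 0.0542, rho 0.53, permutation p = 0.0690, adjusted p = 0.138, r 0.47 without these). The share of rRNA reads, 15.5% to 28.2% over the libraries, had an r of 0.66 with GATA3 (permutation p = 0.0148, adjusted p = 0.118, rho 0.725, permutation p = 0.00747, adjusted p = 0.0598, r 0.56 without the 2 farthest libraries). That share averaged 21.8%, 20.7% and 21.3% for Co, FeEV and FoEV. With counts thinned to the smallest library, FoEV vs. Co gave log2 fold changes of 0.16 for GATA3 (edgeR unadjusted p = 0.0633), 0.34 for GATA2 (unadjusted p = 0.0366) and -0.43 for TFAP2A (unadjusted p = 0.178). In FoEV vs. FeEV the same thinning gave a log2 fold change of 0.69 for ELF3 (edgeR unadjusted p = 0.0219). The part of depth in these results was not tested further.

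**Figure D5:**
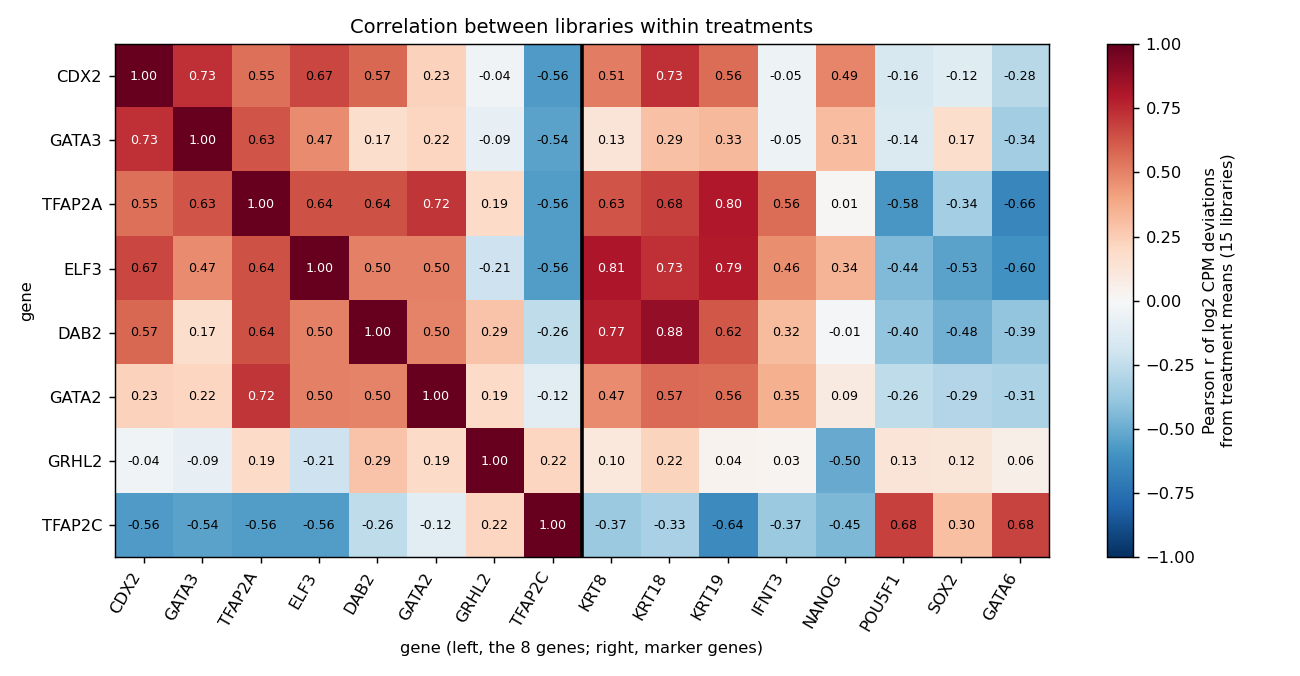
Pearson r between the 8 genes (rows) and the 8 genes and 8 marker genes (columns), computed on log2 CPM deviations from the treatment mean over 15 libraries. DAB2, ELF3 and TFAP2A have the highest values with the keratins, up to 0.88, and TFAP2C has negative values with CDX2, ELF3, TFAP2A and GATA3.

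Of the 8616 genes with a mean of at least 10 CPM, those most like each of the 8 genes by this measure were ranked as a description, without a test. For CDX2, PRELID1, a lipid carrier of mitochondria, had an r of 0.90. They were SLC35B2 (0.92) and MAP7 (0.88) for GATA2, LOC532875 (0.88) and SNX9 (0.84) for GATA3, and ITPR3 (0.93), an inositol trisphosphate receptor, and LRRK1 (0.91) for TFAP2A. TFAP2C was followed by CITED2 (0.92), a coactivator of AP-2 factors, and by the cytokine IL6 (0.89). The nearest genes were EDEM2 (0.91) and DCBLD1 (0.89) for DAB2, MOCOS (0.93) and LAMP1 (0.90) for ELF3, and TOE1 (0.78) and CCSER1 (0.74) for GRHL2. Among all 8616 genes, GATA3 had CDX2 at rank 37 and CDX2 had GATA3 at rank 189, whereas GATA2 had TFAP2A at rank 51. The nearest gene of the list was CDX2 at rank 350 for ELF3 and TFAP2A at rank 417 for DAB2.

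The upstream arm was followed in 15 genes of the Hippo and TEAD pathway, all of them in the filtered table. None (0) passed an adjusted p in edgeR in any comparison, and at an unadjusted p under 0.05 in FoEV vs. Co 1 was higher and 3 were lower, beside 8.18% and 6.88% of all genes. The 1 was TEAD3, with 124 ± 16.1 CPM in FoEV and 105 ± 9.45 in Co (log2 fold change 0.24, unadjusted p = 0.0244). The 3 were the kinase cofactor MOB1A (80.2 ± 11.8 CPM against 101 ± 8.43, log2 fold change -0.34, unadjusted p = 0.00293), the upstream kinase TAOK1 (234 ± 38.2 against 289 ± 15.1, -0.30, unadjusted p = 0.00402) and the YAP1-binding AMOTL2 (53.9 ± 6.82 against 68.4 ± 7.87, -0.34, unadjusted p = 0.0142). MOB1A was also lower in FeEV, at 82.5 ± 4.52 CPM (log2 fold change -0.30, unadjusted p = 0.00806, adjusted p = 1.000), and TAOK1 was lower in FoEV than in FeEV (-0.20, unadjusted p = 0.0463). With the likelihood ratio test on robust dispersions, the adjusted p of MOB1A in FoEV vs. Co was 0.0445. The median of the 15 genes was -0.06 in FoEV vs. Co, 0.02 in FeEV vs. Co and -0.06 in FoEV vs. FeEV.

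Among 30 further trophoblast factors 20 were in the filtered table. EOMES and ELF5, which mark trophoblast stem cells of the mouse, were not among the 20, with 16 and 59 reads over all libraries. At an unadjusted p under 0.05 in FoEV vs. Co, 1 of the 20 was higher and 3 were lower, beside 8.18% and 6.88% of all genes, and 0 passed an adjusted p in edgeR in any comparison. These 4 genes became 2 to 6 without single libraries, with the 2 without FoEV replicate 5, and 2 with the library number of the sample descriptions as a block. KLF5, needed for early lineage formation in the mouse, was read at 688 ± 36.0 CPM in FoEV and 814 ± 33.3 in Co (log2 fold change -0.24, unadjusted p = 0.00265, DESeq2 adjusted p = 0.00767). ETS2, an activator of interferon tau genes, was read at 19.5 ± 5.07 against 28.4 ± 3.57 CPM (-0.53, unadjusted p = 0.00473, adjusted p = 0.0220 with the likelihood ratio test on robust dispersions), and SKIL at 40.1 ± 7.08 against 50.1 ± 6.41 CPM (-0.32, unadjusted p = 0.0199). ARID3A was the higher one, at 55.2 ± 4.04 against 46.0 ± 6.76 CPM (0.27, unadjusted p = 0.0397). In FeEV vs. Co, ETS2 (-0.38, unadjusted p = 0.0383) and ID2 (-0.55, unadjusted p = 0.0437) were the 2 with an unadjusted p under 0.05, both lower, where 1.83% of all genes were higher and 2.32% lower at this p. In FoEV vs. FeEV they were OVOL1 (0.38, unadjusted p = 0.0386) and SKIL (-0.27, unadjusted p = 0.0422), beside 4.83% of all genes higher and 3.69% lower.

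The products of the trophectoderm were represented by 32 genes for keratins, junctions, transport and interferon tau, of which 30 were tested. None (0) passed an adjusted p in edgeR, and in FoEV vs. Co 5 were higher and 2 lower at an unadjusted p under 0.05, beside 8.18% and 6.88% of all genes. These 7 genes became 4 to 9 without single libraries, with the 4 without Co replicate 2, Co replicate 4 or FoEV replicate 1, and 3 with the description numbers as a block. KRT18 had the smallest p, with 2684 ± 404 CPM in Co, 3216 ± 638 in FeEV and 3929 ± 520 in FoEV (log2 fold change of FoEV vs. Co 0.55, SE 0.13, unadjusted p = 0.000347, adjusted p = 0.0818). Whether KRT18 passed depended on the fit, as its adjusted p was 5.72e-06 without a filter, 0.00379 with the likelihood ratio test on robust dispersions, 0.0107 with DESeq2, 0.0126 with the title numbers as a block and 0.0410 without FoEV replicate 2. SPINT2, a protease inhibitor of epithelia, was read at 102 ± 8.75, 110 ± 5.51 and 130 ± 8.21 CPM in the same order (0.35, SE 0.09, unadjusted p = 0.000406, adjusted p = 0.0898, and 0.0132 and 0.0106 with the likelihood ratio test and DESeq2). CLDN6 and the plakoglobin gene JUP were also higher, by 0.25 and 0.23, as was KRT8 by 0.25. The tight junction gene OCLN (-0.22, unadjusted p = 0.0134) and ATP1B1 (-0.56, unadjusted p = 0.0150) were lower. In FeEV vs. Co, KRT7 (-0.39, unadjusted p = 0.0112) and ATP1B1 (-0.56, unadjusted p = 0.0165) were lower, beside 2.32% of all genes lower at this p. In FoEV vs. FeEV the 4 with an unadjusted p under 0.05 were KRT7 (0.46), SPINT2 (0.24), CLDN6 (0.24) and KRT18 (0.29), all higher in FoEV, beside 4.83% of all genes. The count of 4 was 2 to 6 without single libraries, 7 without a filter, and 8 and 2 with the title and description numbers as a block, and that of 2 in FeEV vs. Co was 5 without a filter and 5 and 0 with these blocks.

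Markers of the other cells of the blastocyst, and of cells that could be carried along, were read in the same way. Of 9 epiblast genes tested, 5 were higher and 4 lower in FoEV than in Co. NANOG was the 1 with an unadjusted p under 0.05 in FoEV vs. Co (2 without Co replicate 2 or FoEV replicate 5), beside 15.1% of all genes. It was read at 45.0 ± 16.7 CPM against 80.4 ± 19.9 (log2 fold change -0.84, unadjusted p = 0.00641, adjusted p = 0.178, and 0.0067 and 0.0399 with the likelihood ratio test and DESeq2). NANOG was also lower in FeEV, at 52.1 ± 13.2 CPM (-0.62, unadjusted p = 0.0342), where DNMT3B, a DNA methyltransferase, was higher at 288 ± 38.7 CPM against 226.6 ± 23.0 in Co (0.35, unadjusted p = 0.00175, adjusted p = 1.000). These were 2 of the 9 in FeEV vs. Co (1 to 3 without single libraries), beside 4.15% of all genes. Of 13 hypoblast genes, RSPO3 (10.4 ± 1.68 against 17.7 ± 7.13 CPM, -0.76, unadjusted p = 0.00458) and FN1 (-0.29, unadjusted p = 0.0496) were lower in FoEV than in Co. These were 2 of the 13, beside 15.1% of all genes at this p, so the count was near the share of all genes. It was 6 without Co replicate 3 and 1 without Co replicate 2 or 4, FeEV replicate 1 or FoEV replicate 1 or 2. The adjusted p of RSPO3 was 0.0411 without a filter. The summed level of the epiblast list ranged from 746 to 853 CPM in Co, 739 to 912 in FeEV and 714 to 1007 in FoEV, and that of the hypoblast list from 7362 to 9934, 6513 to 8859 and 5731 to 8329 CPM. Most of the hypoblast sum was FN1. Its means were 6803, 6218 and 5566 CPM for Co, FeEV and FoEV, beside 8498, 7801 and 7213 CPM for the whole list. Of 8 genes of oviduct epithelium only PAX8 was tested, without an unadjusted p under 0.05. OVGP1, the oviduct glycoprotein, had 0 to 6 reads per library and PIGR 0 in all 15, and the list summed to 12.1 to 19.0 CPM in Co, 7.06 to 16.0 in FeEV and 9.09 to 20.4 in FoEV. The cumulus list of 9 genes, 4 of them tested, summed to 53.6 to 130 CPM in Co, 63.8 to 127 in FeEV and 66.1 to 154 in FoEV, with PTX3 and LHCGR at 1 read each over all libraries, and FSHR was lower in FeEV than in Co (-0.55, unadjusted p = 0.0254). CYP11A1 gave the largest part of the cumulus sum. Its means were 62.5, 52.8 and 63.5 CPM for Co, FeEV and FoEV, beside 101, 90.5 and 104 CPM for the whole list. None (0) of 5 sperm genes was in the filtered table, and they summed to 0.838 to 13.0 CPM.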

How the data were processed

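Total RNA of pools of bovine blastocysts was sequenced as single-end reads, with 5 libraries per treatment. Per the labels, reads were trimmed with Trim Galore 0.4.3.1, mapped with HISAT2 2.1.0 to the bovine assembly ARS-UCD1.2 and counted with featureCounts 1.6.3, whereas the methods name QuasR Qcount for counting. The deposited tables hold read counts per NCBI gene without normalization, for 34773 genes and for the 10832 genes that the authors kept. The library kit keeps the strand. Whether it was used in counting is not given in the sources used here, so reads of overlapping antisense genes cannot be told apart from those of the listed genes. Mapping and counting were not repeated.

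Gene symbols came from a RefSeq table of a later assembly, joined by gene identifier, and 10709 of the filtered genes were matched. No coordinates or sequences are given, as no genome, sequence or transcript length was used here. Totals per library were 2136713 to 4058887 counts. The floor of 3 reads and the counting coefficients of variation cover counting error only, as reads are not independent molecules, whereas the 95% intervals of edgeR include the spread between libraries.

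Counts of the filtered table were scaled by TMM and fitted in 1 model of 15 libraries and 3 treatments with edgeR 4.0.16 in R 4.3.3 (estimateDisp, robust glmQLFit, glmQLFTest), with Benjamini-Hochberg adjustment over 10832 genes. Log2 CPM for correlations used a prior count of 2, and p-values came from 100000.0 permutations within treatments. Library totals were compared with two-sided exact permutation tests, each with 252 assignments. DESeq2 1.42.0, a likelihood ratio test on robust dispersions, other scalings and filters, blocks by library number, thinning and leaving out libraries were alternatives. Scripts used Python 3.11.15, pandas 2.3.3, scipy 1.17.1 and matplotlib 3.10.9, and were tested on simulated data.

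The genes and lists were chosen with earlier results of these data known. Named by rule are the 10 genes, of each other list up to 5 genes of smallest p with an unadjusted p under 0.05 per comparison, and the 2 genes most like each of the 8, of which 1 is not reported here. JUP, KRT8, IFNT2, EOMES, ELF5, OVGP1, PAX8, PIGR, PTX3, LHCGR, CYP11A1 and the 8 markers of the correlations were named outside this rule, after their values were seen.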

Additional observations from a re-analysis of the deposited data

Results flagged for a closer look

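A library was singled out where its gap to the next library of the treatment exceeded 0.71 of the treatment's range, the 95% value of Dixon's test for 5 samples. Over 30 groups of 1 gene in 1 treatment, 5 were singled out, and chance alone does so in about 1 in 20 groups. CDX2 reached 55.9 CPM in FeEV replicate 5 (200 reads), where the other FeEV libraries had 25.6 to 33.7 CPM. ASCL2 reached 5.03 CPM in FeEV replicate 5 (18 reads) and 4.63 CPM in FoEV replicate 5 (17 reads), where no other library of these treatments exceeded 6 reads. ELF3 was at 39.3 CPM in FoEV replicate 5, a small excess over 34.5 to 35.4 CPM in the other FoEV libraries. HAND1 was at 2.73 CPM in FeEV replicate 4, which stands for 6 reads. The 5 values lie in 3 libraries, of which 2 are numbered 5.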

How the results depend on the processing

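The fold changes of the 8 genes were recomputed under 26 alternatives each, 624 values in all, and the adjusted p of these genes stayed above 0.05 in every one of them (smallest 0.0589, GATA2 in FoEV vs. Co with the likelihood ratio test on robust dispersions). The number of all genes called in FoEV vs. Co, 1 in edgeR, was 173 without a filter, 311 with robust dispersions, 138 with DESeq2, 5 with only the 2 treatments fitted, 6 after thinning, 2 without the 3 libraries numbered 5 and 0 to 58 without single libraries. It was 13, 6 and 1 in FeEV vs. Co (0 to 1 without single libraries) and 22, 31 and 3 in FoEV vs. FeEV (0 to 1 without single libraries) with no filter, robust dispersions and DESeq2. Of the 8 genes, those with an unadjusted p under 0.05 in FoEV vs. Co numbered 4 with robust dispersions, 1 after thinning, 1 without the 3 libraries numbered 5 and 1 to 3 without single libraries. In FeEV vs. Co they numbered 1 with DESeq2, 1 after thinning and 0 to 1 without single libraries, and in FoEV vs. FeEV 2 with no filter, 2 with robust dispersions and 0 to 2 without single libraries. With the replicate number of the titles as a block, 57 genes were called in FoEV vs. Co and 4, 2 and 2 of the 8 had an unadjusted p under 0.05 in the 3 comparisons. The share of all genes at this unadjusted p is not given for the alternatives. The counts of the 8 genes in them therefore have no background to be read beside. With the numbers of the sample descriptions as a block, 12 genes were called in FoEV vs. Co and 1 in FoEV vs. FeEV. Neither number was taken to pair the pools, as not every pair correlated above 0.1, a rule that is no test of pairing. Any effect shared by pools of the same number was therefore left in the p-values outside the block fits. Between pools of different title numbers the mean correlation of residuals was -0.02 in FoEV and Co, -0.04 in FeEV and Co and -0.05 in FoEV and FeEV. Pools with the same title number had a mean correlation of residuals of 0.06 in FoEV and Co (-0.33 to 0.39), 0.16 in FeEV and Co and 0.20 in FoEV and FeEV, above 0.1 in 2, 3 and 3 of 5 pairs, and 1, 2 and 2 of 5 correlated best with their own number. For the description numbers the means were 0.06, 0.12 and 0.06, above 0.1 in 1 of 3, 1 of 3 and 1 of 4 pairs. The sign was reversed in 7 of the 624 values. With all libraries, the log2 fold changes concerned ran from -0.18 (ELF3 in FeEV vs. Co) to 0.10 (CDX2 in FeEV vs. Co). In FoEV vs. FeEV, GATA3 was -0.030 after thinning, and CDX2 in FeEV vs. Co was -0.0058 without the 3 libraries numbered 5. Without single libraries, GRHL2 ran from -0.19 to 0.023 in FoEV vs. Co, CDX2 from -0.15 to 0.25 and ELF3 from -0.43 to 0.024 in FeEV vs. Co, and TFAP2A from -0.40 to 0.076 and DAB2 from -0.10 to 0.00025 in FoEV vs. FeEV. The difference in library totals ran from -7716 to 410256 for FeEV vs. Co and from 547176 to 965149 for FoEV vs. FeEV, where the exact permutation p was above 0.05 without FoEV replicate 1 or 5 or any of FeEV replicates 1 to 4 (0.0556 to 0.0635), and for FeEV vs. Co it was 0.0397 without FeEV replicate 4. The causes were not tested. The depth limits HAND1 and ASCL2 most, at up to 11 and 18 reads per library.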
